A study of Homo sapiens with 4 samples.

Results

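Semaphorins are secreted or membrane-bound signalling proteins, and plexins are their receptors, which act on the cytoskeleton and on cell adhesion through small GTPases. Neuropilins are co-receptors that lend secreted class 3 semaphorins a hold on plexins and also bind VEGF. The family is known for guiding axons and blood vessels, and several members are studied in liver cancer for effects on migration and vessel growth. Here all 30 genes of the array whose symbols begin with SEMA3 to SEMA7, PLXNA to PLXND, or are NRP1 or NRP2 were followed, out of 17687 named genes. They comprised 19 semaphorins, 9 plexins and 2 neuropilins, each with 1 probe set. The direction and size of the SEMA7A change were known when the genes were chosen.

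Both cell lines used, Li-7 and HEP-G2, are established human liver cancer lines. Each line received a miR-4730 mimic (3 nM, lipid reagent, added 24 h after the cells were seeded) or the negative control oligonucleotide #1 of the same supplier, and the time of RNA extraction is not given in the sources used here. There was 1 Affymetrix array per line and treatment and no replicate of any group. Li-7 was grown in RPMI-1640 and HEP-G2 in DMEM, so line and medium cannot be told apart.

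Values are on the deposited scale, read as log2, where 1 unit is a 2-fold difference. Array medians lay between 7.03 and 7.17. The 95th percentile of 612 negative-control probe sets, used below as the background limit of an array, stood at 8.72 for Li-7 control, 7.99 for Li-7 mimic, 8.35 for HEP-G2 control and 8.20 for HEP-G2 mimic. HMGA1, the target the study names, went from 14.93 to 10.91 in Li-7 and from 14.79 to 11.61 in HEP-G2. Of 9 measured hepatocyte markers, all lay above the limit on both HEP-G2 arrays, while on the Li-7 arrays 8 lay under it, including ALB (7.30 and 7.19) and AFP (4.75 and 3.92), and SERPINA1 passed it with the mimic only. Defining markers of endothelium (PECAM1, CDH5) and blood cells (PTPRC) lay under the limit on every array, and of stroma COL1A1 did while COL1A2 lay above it on all 4. In all, 1 of 6 endothelial markers (ESAM, in HEP-G2), 1 of 5 blood markers (CD68), 3 of 6 stromal markers and 1 of 5 neuron markers (SNAP25, with the mimic in Li-7) passed the limit on at least 1 array.

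The sequence introduced into the cells is that of the mature microRNA, shown because every mimic change below compares cells given it with control cells. No group had a replicate, so whether such a change exceeds the difference between cultures or arrays of the same treatment was not tested. It is given as in RefSeq (GRCh38.p14, chr17:80419427-80419449, plus strand), with the seed, bases 2 to 8, in capitals. No other mature human microRNA of the 2370 names in that table had the same seed.
hsa-miR-4730: cUGGCGGAgcccauuccaugcca

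Of the RefSeq promoter table, 26 of the 30 genes had an entry (NRP1, SEMA3A, SEMA6A and SEMA6B had none). The 250 bases before the annotated start are printed for SEMA7A, the member that passed the test of the mimic response, for its receptor PLXNC1, and for 3 genes of a chromosome 7 cluster that differed between the lines in opposite directions. Capitals mark matches, on either strand, to the GC box GGGCGG, the AP-1 element TGANTCA, the TEAD element GGAATG, the TATA box TATAAA or the E-box CACGTG.
SEMA7A (chr15:74433959-74434208, minus strand): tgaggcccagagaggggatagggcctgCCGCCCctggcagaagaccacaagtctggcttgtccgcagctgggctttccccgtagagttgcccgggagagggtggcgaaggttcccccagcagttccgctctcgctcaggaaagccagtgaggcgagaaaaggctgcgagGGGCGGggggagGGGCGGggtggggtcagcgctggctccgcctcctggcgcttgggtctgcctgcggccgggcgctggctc
PLXNC1 (chr12:94262369-94262618, plus strand): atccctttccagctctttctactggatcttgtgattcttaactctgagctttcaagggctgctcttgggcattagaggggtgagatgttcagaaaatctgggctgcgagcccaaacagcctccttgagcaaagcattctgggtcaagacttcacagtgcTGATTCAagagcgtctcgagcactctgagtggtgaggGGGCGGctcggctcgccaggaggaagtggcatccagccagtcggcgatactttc
SEMA3C (chr7:80922390-80922639, minus strand): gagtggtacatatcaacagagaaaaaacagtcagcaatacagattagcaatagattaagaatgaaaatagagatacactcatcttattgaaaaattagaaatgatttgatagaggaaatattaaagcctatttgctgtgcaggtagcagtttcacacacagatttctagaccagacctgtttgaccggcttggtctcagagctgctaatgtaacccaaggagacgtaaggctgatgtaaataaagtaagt
SEMA3E (chr7:83649140-83649389, minus strand): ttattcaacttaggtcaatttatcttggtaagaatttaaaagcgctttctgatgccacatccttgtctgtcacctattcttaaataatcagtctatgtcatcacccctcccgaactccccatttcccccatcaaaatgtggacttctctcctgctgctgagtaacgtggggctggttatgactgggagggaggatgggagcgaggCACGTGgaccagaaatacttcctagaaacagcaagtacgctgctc
SEMA3D (chr7:85187057-85187306, minus strand): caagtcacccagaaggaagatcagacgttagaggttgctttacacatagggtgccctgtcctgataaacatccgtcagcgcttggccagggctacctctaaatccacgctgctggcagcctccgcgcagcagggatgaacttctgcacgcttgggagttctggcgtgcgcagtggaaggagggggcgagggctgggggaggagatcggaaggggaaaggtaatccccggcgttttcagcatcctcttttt

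In these windows SEMA7A had 3 GC box matches, PLXNC1 had 1 GC box match and 1 AP-1 match, SEMA3E had 1 E-box match, and SEMA3C and SEMA3D had 0 matches. Over 14250 promoters of array genes in windows of the same length, 57.0% held the GC box, 5.07% the AP-1 element, 10.0% the TEAD element, 8.99% the TATA box and 7.70% the E-box. Among the 26 members the counts were 18, 1, 2, 0 and 3. CpG dinucleotides numbered 17 for SEMA7A, 8 for PLXNC1, 2 for SEMA3C, 6 for SEMA3E and 13 for SEMA3D, against a median of 18 over the array genes. These matches are descriptions of letters, and binding was not measured.

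On at least 1 array 14 of the 30 lay above the background limit, against 48.0% of all named genes, and 3 did so on all arrays (NRP1, NRP2 and PLXNA1), against 31.4%. In Li-7 9 members passed it on the control array, where 36.7% of all named genes did, and 10 on the mimic array, where 42.7% did. In HEP-G2 6 passed it on the control array, where 39.4% of all did, and 8 on the mimic array, where 39.95% did. Above the limit on both Li-7 arrays and on no HEP-G2 array were SEMA3A, SEMA3C, SEMA3E, SEMA4B and PLXNB2. Above it on at least 1 HEP-G2 array and no Li-7 array were SEMA4G, SEMA6B, PLXNA2 and PLXNC1. The 16 members that passed it nowhere ran from 3.09 to 7.47, and 7 of them (SEMA3F, SEMA4F, SEMA5A, SEMA5B, SEMA6D, PLXNA4 and PLXNB3) had means under the 30th percentile of named genes and were not tested. The number of members above the limit rests on where it is set: with the 99th percentile of the negative controls it was 4 (control) and 5 (mimic) in Li-7, and 1 and 2 in HEP-G2. The share of all named genes past that percentile was not counted, so whether this drop is particular to the members was not tested.

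**Figure D1:**
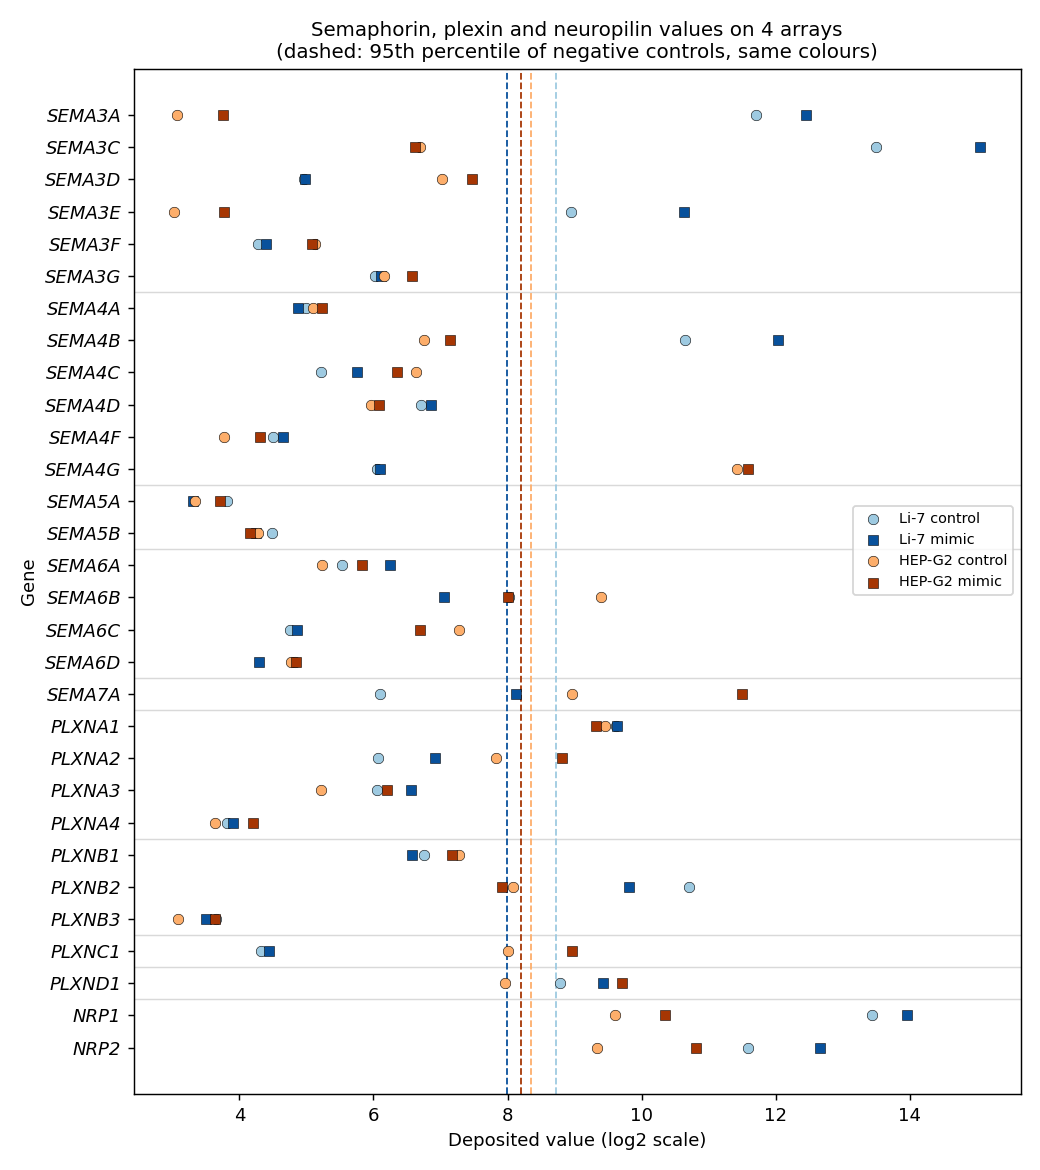
Deposited log2-scale value (x axis) of each of the 30 genes (y axis, grouped by class) on the 4 arrays, with 1 point per array. Circles are control arrays, squares mimic arrays, and dashed lines the background limit of each array (95th percentile of its negative controls), between 7.99 and 8.72; SEMA3A, SEMA3C and SEMA3E stand right of the lines in Li-7 and left of them in HEP-G2.

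Between the lines, 16 of the 30 genes differed in the limma fit with Benjamini-Hochberg adjustment over 12381 genes, 8 higher in each line, and 23 were tested. Among all genes tested 44.9% differed, 20.7% higher in HEP-G2 and 24.3% higher in Li-7, so line differences were common. Since a gene that is bright in 1 line alone can pass the filter through that line, the share among tested members supports nothing further. The differences below are HEP-G2 minus Li-7, averaged over the control pair and the mimic pair of arrays. The fit has 1 residual degree of freedom per gene. It holds how far the control pair and the mimic pair disagree, not a spread between cultures. The printed SEs, intervals and p values are moderated, with that disagreement pulled towards a value shared over all genes (5.85 prior degrees of freedom). The SE was thus 0.24 for SEMA3A, whose own disagreement gave 0.034, and 0.40 for SEMA3C, whose own gave 0.82. With unmoderated t statistics no member passed in either comparison.

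**Figure D2:**
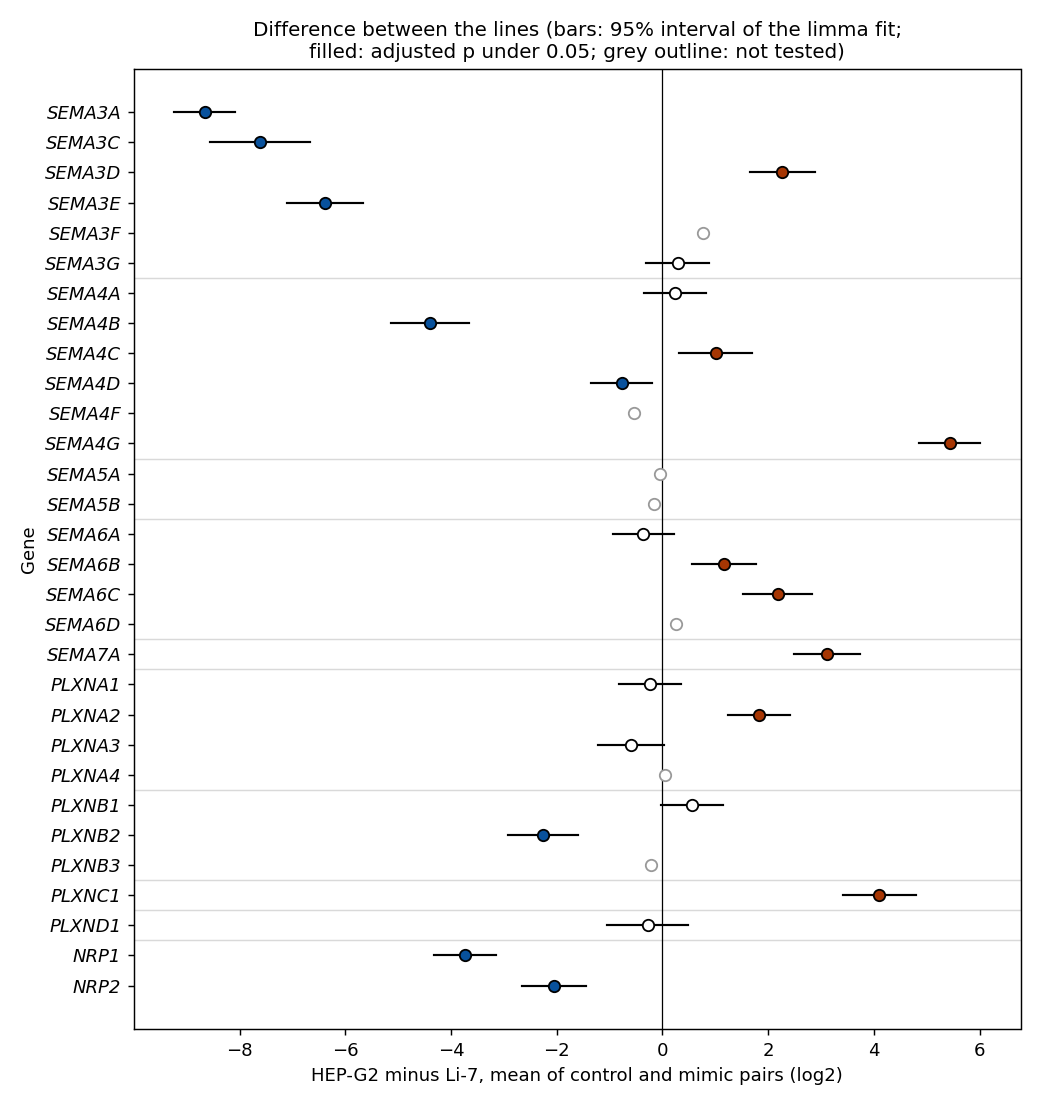
Difference between the lines (x axis, HEP-G2 minus Li-7, log2) for each gene (y axis), with the 95% interval of the limma fit as bars. Filled points passed an adjusted p of 0.05, open points did not, and grey outlines were not tested; SEMA3A at -8.66 is the lowest and SEMA4G at 5.43 the highest.

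With the mimic, 17 of the 30 genes were higher in both lines, against 5779 of all 17687 named genes (32.7%). Lower in both were 4, against 5072 of all named genes, and 9 had opposite signs, against 6834. The median of the mean change was 0.24, against 0.03 over all named genes. In Li-7, 5 members were at least 2-fold higher (SEMA7A, SEMA3E, SEMA3C, SEMA4B and NRP2), where 2.93% of all named genes were, and 0 at least 2-fold lower, where 3.16% were. In HEP-G2, 3 were at least 2-fold higher (SEMA7A, PLXND1 and NRP2), where 4.74% of all were, and SEMA6B was at least 2-fold lower, where 4.94% were. These are untested differences between single arrays, and after quantile normalization or median centring the HEP-G2 count was 5 higher in place of 3. The share of all named genes after such rescaling was not counted. In the limma fit over both lines 1 of the 30 passed, SEMA7A, with 23 tested, and 11 had an unadjusted p under 0.05, against 2409 of all 12381 tested. The count of members was 3 after quantile normalization, with the filter at the median gene and with the filter on the background limit, and 2 with an intensity trend, while over all genes the calls rose from 52 to 465, 366, 427 and 411. It was 0 with unmoderated t statistics and without the line term.

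Of the 6 secreted class 3 semaphorins, most of which reach plexins through a neuropilin, SEMA3A, SEMA3C and SEMA3E lay above the limit in Li-7 alone. SEMA3A, a repellent of axons and endothelial cells that signals through NRP1, stood at 11.70 and 12.44 in Li-7, against 3.08 and 3.75 in HEP-G2, control and mimic. SEMA3C, which can signal through either neuropilin, stood at 13.50 and 15.05 in Li-7, against 6.70 and 6.62 in HEP-G2. SEMA3E, the ligand that binds PLXND1 without a neuropilin, stood at 8.94 and 10.63 in Li-7, against 3.03 and 3.78 in HEP-G2. All 3 were called higher in Li-7, as were 24.3% of all tested genes. In Li-7 control SEMA3E lay close to that array's limit of 8.72.

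The difference was -8.66 for SEMA3A (SE 0.24, adjusted p = 1.64e-06 by limma), -7.61 for SEMA3C (SE 0.40, adjusted p = 1.3e-05) and -6.38 for SEMA3E (SE 0.30, adjusted p = 9.23e-06). SEMA3A and SEMA3E entered the test through Li-7 alone, since their HEP-G2 values lay under the filter value of 4.90. Their p values thus add no support to the line difference. Because the HEP-G2 values lay under the limit, the folds are lower bounds, in which the dim array's limit replaces its value. Li-7 was at least 13.9-fold higher for SEMA3A, at least 63.8-fold for SEMA3C and at least 2.84-fold for SEMA3E. SEMA3D went the other way, with 4.97 and 4.98 in Li-7 and 7.02 and 7.47 in HEP-G2, a difference of 2.27 (SE 0.26, adjusted p = 0.000453 by limma). All SEMA3D values lay under the limit, so no fold is given.

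These 4 genes lie in a row on chromosome 7. In the RefSeq gene table (GRCh38.p14) SEMA3E, SEMA3A and SEMA3D have no other protein-coding gene starting between them, and SEMA3C is separated from SEMA3E by HGF, CACNA2D1 and PCLO. Of those, chosen after the positions were seen, CACNA2D1 stood at 6.65 and 6.92 in Li-7, against 3.11 and 2.83 in HEP-G2, while HGF (4.46 and 3.28, then 4.09 and 3.80) and PCLO (3.31 and 3.08, then 3.55 and 5.12) were low in both. None of the 3 passed the limit on any array or entered the test. Thus only SEMA3A, SEMA3C and SEMA3E of the 7 genes from SEMA3C to SEMA3D passed the limit on any array, in Li-7 in each case. The other class 3 genes were SEMA3G, between 6.02 and 6.57 on the 4 arrays with a line difference of 0.29 (adjusted p = 0.381 by limma), and SEMA3F, between 4.28 and 5.12 and not tested.

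With the mimic, SEMA3E was 1.69 higher in Li-7 and 0.75 higher in HEP-G2, with a mean of 1.22 (SE 0.30, adjusted p = 0.117 by limma). SEMA3C was 1.55 higher in Li-7 but 0.08 lower in HEP-G2 (-0.08), where both values lay under the limit, and after cyclic loess the HEP-G2 difference was 0.04. SEMA3A was 0.75 and 0.68 higher in Li-7 and HEP-G2, with a mean of 0.71 (SE 0.24, adjusted p = 0.189 by limma). No class 3 gene passed the test of the mimic response. The 5 tested ones had adjusted p values of at least 0.117, and SEMA3E passed narrowly (adjusted p = 0.04996 by limma) when only genes above the limit on at least 2 arrays were tested.

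Among the membrane semaphorins, SEMA4B and SEMA4G differed between the lines in opposite directions. SEMA4B stood at 10.65 and 12.03 in Li-7, against 6.75 and 7.14 in HEP-G2. SEMA4G, a class 4 semaphorin known to be expressed in liver, stood at 6.05 and 6.10 in Li-7, against 11.42 and 11.59 in HEP-G2. SEMA4B was high on the Li-7 arrays alone and SEMA4G on the HEP-G2 arrays alone. The differences were -4.40 for SEMA4B (SE 0.31, adjusted p = 4.68e-05 by limma), at least 8.37-fold higher in Li-7, and 5.43 for SEMA4G (SE 0.24, adjusted p = 7.2e-06), at least 8.87-fold higher in HEP-G2.

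The 4 other class 4 genes lay under the limit on all arrays. Of these, SEMA4C, a ligand of PLXNB2, stood at 5.21 and 5.75 in Li-7, against 6.64 and 6.35 in HEP-G2, and differed by 1.01 (SE 0.29, adjusted p = 0.0271 by limma), a call lost without the treatment term (adjusted p = 0.0602). SEMA4D, the ligand of PLXNB1, stood at 6.71 and 6.86 in Li-7, against 5.96 and 6.08 in HEP-G2, and differed by -0.77 (SE 0.24, adjusted p = 0.0394 by limma). This call was lost after quantile normalization (adjusted p = 0.0701) and after median centring (adjusted p = 0.0698). It was also lost with an intensity trend (adjusted p = 0.0581), without the treatment term (adjusted p = 0.0831) and with unmoderated t statistics (adjusted p = 0.241). SEMA4A ran from 4.87 to 5.24 and SEMA4F from 3.76 to 4.65.

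With the mimic SEMA4B was 1.38 higher in Li-7 and 0.39 higher in HEP-G2, a mean of 0.89 (SE 0.31, adjusted p = 0.193 by limma). SEMA4G was 0.05 higher in Li-7 and 0.17 higher in HEP-G2, a mean of 0.11 with a 95% interval from -0.47 to 0.69. Neither of the pair passed the test of the mimic response.

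Class 5 and 6 genes, transmembrane proteins that can act as ligands and receptors, lay under the limit on all arrays apart from SEMA6B. SEMA6B, a class 6 ligand of A-type plexins, stood at 8.01 and 7.05 in Li-7, against 9.388 and 8.004 in HEP-G2, control and mimic. The control was the higher array in each line, and the HEP-G2 control value was the only one above its limit. Its mean change was -1.18 (SE 0.26, 95% interval -1.78 to -0.57, adjusted p = 0.0916 by limma), the lowest of the 30 genes. It did not pass, but did after quantile normalization (adjusted p = 0.04496) and with the filter at the median gene (adjusted p = 0.0428). In HEP-G2 the control array was at least 2.27-fold above the mimic array.

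SEMA6B was also 1.17 higher in HEP-G2 (SE 0.26, adjusted p = 0.00934 by limma), a call that was lost without the treatment term (adjusted p = 0.173). SEMA6C stood at 4.75 and 4.86 in Li-7, against 7.27 and 6.70 in HEP-G2, a difference of 2.18 (SE 0.28, adjusted p = 0.000769 by limma) among values under the limit. SEMA6C entered the test through HEP-G2 alone, since both Li-7 values lay under the filter value of 4.90, so its p value adds no support. SEMA6A, a ligand of PLXNA2 and PLXNA4, was 0.71 and 0.61 higher with the mimic in Li-7 and HEP-G2 (mean 0.66, SE 0.24, adjusted p = 0.215 by limma), also under the limit throughout. SEMA5A, SEMA5B and SEMA6D were not tested and ran from 3.31 to 4.85.

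As fitted, SEMA7A alone of the 30 genes passed the test of the mimic response, where 0.420% of all genes tested passed in either direction, 0.0808% upward and 0.339% downward. It encodes a semaphorin held in the membrane by a lipid anchor, also known as CD108, which binds PLXNC1 and beta-1 integrins. Its values were 6.09 in Li-7 control, 8.13 in Li-7 mimic, 8.96 in HEP-G2 control and 11.49 in HEP-G2 mimic. In each line the mimic array was the higher. SEMA7A rose by 2.03 in Li-7 and by 2.53 in HEP-G2, a mean of 2.28 (SE 0.26, 95% interval 1.66 to 2.90, adjusted p = 0.0311 by limma).

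In HEP-G2 both values lay above the limit. In Li-7 the control value lay under it and the mimic value of 8.13 passed the mimic array's limit of 7.99 but not the control array's 8.72, so the Li-7 fold has no measured lower bound and no fold is given for the mean. The call was kept in 8 of 10 alternative settings on the same 4 arrays, with adjusted p between 0.00314 and 0.0448 by limma. Of these 8, averaging the probe sets of a gene could not change its values, since SEMA7A has 1 probe set. Filters and the intensity trend could move its p value but not the size of its change. The call was lost with unmoderated t statistics (adjusted p = 0.635) or when the line term was dropped (adjusted p = 1). SEMA7A also differed between the lines by 3.11 (SE 0.26, adjusted p = 0.000109 by limma), a call that was lost without the treatment term (adjusted p = 0.0614).

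Its receptor PLXNC1 stood at 4.32 and 4.44 in Li-7, against 8.01 and 8.96 in HEP-G2, control and mimic. Both Li-7 values lay near the median of the negative controls (4.12 on each array), and of the HEP-G2 values only the mimic one passed its limit. The line difference was 4.10 (SE 0.29, adjusted p = 4.88e-05 by limma), with no lower bound on the fold since the HEP-G2 control value lay under its limit too. PLXNC1 entered the test through HEP-G2 alone, since both Li-7 values lay under the filter value of 4.90, so this p value adds no support. Ligand and receptor were thus both higher in HEP-G2 than in Li-7, each among the 20.7% of tested genes called in that direction.

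With the mimic PLXNC1 was 0.12 higher in Li-7 and 0.95 higher in HEP-G2, a mean of 0.53 (SE 0.29, 95% interval -0.16 to 1.22, adjusted p = 0.366 by limma), and it passed in none of the settings tried. ITGB1, the beta-1 integrin that SEMA7A can bind in place of a plexin, lay above the limit on all arrays, at 16.41 and 17.14 in Li-7, against 14.88 and 15.77 in HEP-G2. Its mimic change was 0.81 (adjusted p = 0.157 by limma). Of these 3 genes, SEMA7A alone passed the test of the mimic response, and whether its change differs from theirs was not tested.

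**Figure D3:**
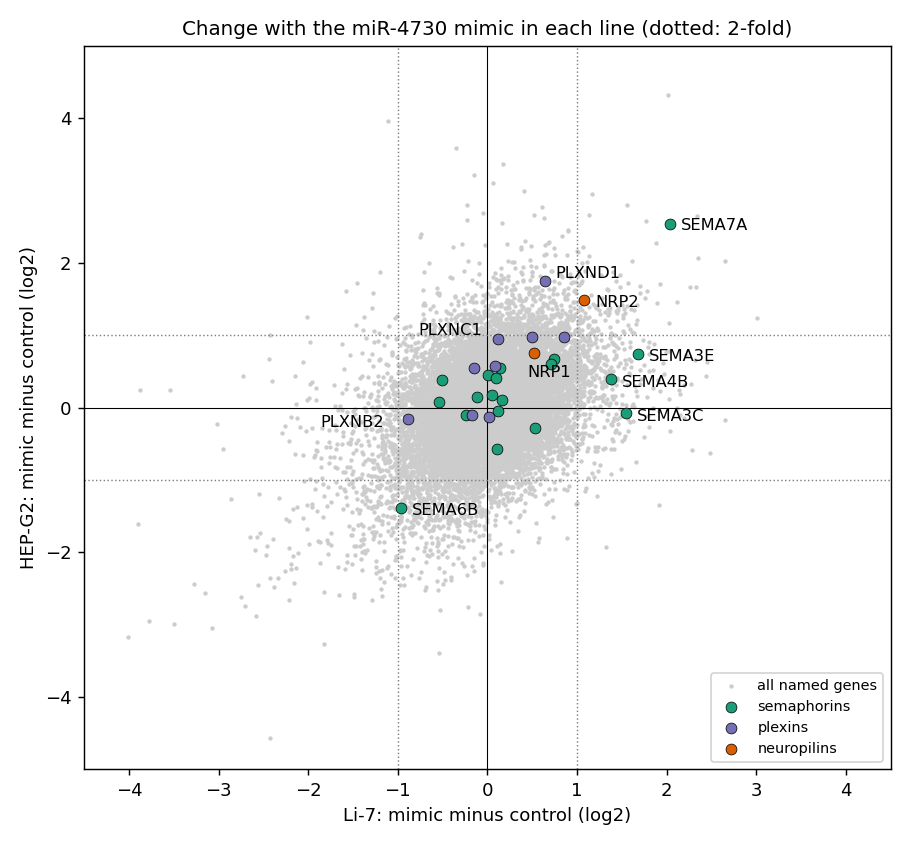
Mimic minus control in Li-7 (x axis, log2) against HEP-G2 (y axis, log2), with 1 point per gene, each a difference of single arrays. Grey points are all 17687 named genes, coloured points the 30 members, and dotted lines mark 2-fold; SEMA7A (2.03 and 2.53) and NRP2 (1.08 and 1.49) are the members past 2-fold higher in both lines.

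Among the receptors, the A-type plexins are the signalling partners of neuropilins for class 3 semaphorins. PLXNA1 lay above the limit on every array, at 9.62 and 9.64 in Li-7, against 9.46 and 9.32 in HEP-G2. Its 4 values lay within a narrow band, with a line difference of -0.24 (95% interval -0.82 to 0.35) and a mimic change of -0.06 (95% interval -0.64 to 0.53). PLXNA2 stood at 6.06 and 6.92 in Li-7, against 7.82 and 8.80 in HEP-G2, where the mimic value alone passed the limit. The line difference was 1.83 (SE 0.24, adjusted p = 0.00101 by limma), with no lower bound on the fold, and the mimic values were higher by 0.86 in Li-7 and by 0.98 in HEP-G2 (mean 0.92, adjusted p = 0.127). PLXNA3 was 0.50 and 0.98 higher with the mimic in Li-7 and HEP-G2 (mean 0.74, adjusted p = 0.197 by limma), under the limit on all arrays, and PLXNA4 ran from 3.64 to 4.21 and was not tested.

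PLXND1, the receptor of SEMA3E that is best known from blood vessels, stood at 8.78 and 9.42 in Li-7, against 7.96 and 9.70 in HEP-G2. The mimic array was the higher in each line, and only the HEP-G2 control value lay under its limit. Its change reached 0.64 in Li-7 but 1.74 in HEP-G2, the latter at least 2.55-fold, and the mean of 1.19 (SE 0.32, 95% interval 0.43 to 1.96) did not pass (adjusted p = 0.130 by limma). The lines overlapped, with a difference of -0.28 (95% interval -1.04 to 0.49).

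The B-type plexins are receptors of class 4 semaphorins and can associate with the receptor kinases MET and ERBB2. PLXNB2 stood at 10.70 and 9.81 in Li-7, against 8.08 and 7.91 in HEP-G2. It was high in Li-7 and under the limit in HEP-G2, a difference of -2.26 (SE 0.28, adjusted p = 0.000698 by limma) and at least 3.94-fold. With the mimic its value was 0.89 lower in Li-7 (-0.89) and 0.16 lower in HEP-G2 (-0.16), and the mean of -0.53 did not pass (adjusted p = 0.353 by limma). PLXNB1 ran from 6.57 to 7.27 and PLXNB3 from 3.09 to 3.65, all under the limit.

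Both neuropilins lay above the limit on every array and were higher in Li-7. NRP1, the co-receptor of SEMA3A and of VEGF-A, stood at 13.44 and 13.96 in Li-7, against 9.60 and 10.34 in HEP-G2. NRP2, the co-receptor of SEMA3F and of VEGF-C, stood at 11.58 and 12.67 in Li-7, against 9.33 and 10.82 in HEP-G2. For each gene the mimic array was the higher in each line. Both genes were called higher in Li-7, as were 24.3% of all tested genes. The line difference was -3.73 for NRP1 (SE 0.25, adjusted p = 3.61e-05 by limma), which is 13.2-fold, and -2.05 for NRP2 (SE 0.26, adjusted p = 0.000712), which is 4.14-fold.

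With the mimic NRP2 was 1.08 higher in Li-7 and 1.49 higher in HEP-G2, a mean of 1.29 (SE 0.26, 95% interval 0.68 to 1.89). It did not pass as fitted (adjusted p = 0.0844 by limma), but passed in 4 of 10 alternative settings. These were quantile normalization (adjusted p = 0.0307), the filter at the median gene (adjusted p = 0.0373), the filter on the background limit (adjusted p = 0.0305) and eBayes with an intensity trend (adjusted p = 0.0301). Over all settings its adjusted p ran up to 1, when the line term was dropped. NRP1 was 0.52 and 0.75 higher in Li-7 and HEP-G2, a mean of 0.64 (SE 0.25, adjusted p = 0.229 by limma).

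Of the genes known to act with this family, from a list drawn up with earlier results of these data known, none passed the limma test of the mimic response. At an unadjusted p under 0.05 stood 7 of 30 tested effectors, 6 of 12 tested partner receptors, 3 of 7 tested ligands of neuropilins and 2 of 6 tested proteases, against 2409 of all 12381 genes tested. The list of intracellular effectors held 33 measured genes, such as the GTPases, CRMPs and LIM kinases downstream of plexins, and 30 were tested. Of the 33, 22 were higher in both lines and 0 lower in both, against 5779 and 5072 of all 17687 named genes. Their median change was 0.30, against 0.03 over all named genes. MICAL1, an actin-oxidising enzyme that binds plexins, had the largest mean change at 1.00 with 0.83 in Li-7 and 1.17 in the other line (adjusted p = 0.119 by limma), under the limit on all arrays. LIMK1, the kinase of cofilin, went from 10.08 to 10.74 in Li-7 and from 8.11 to 9.16 in HEP-G2, a mean of 0.86 (adjusted p = 0.151 by limma). DPYSL3, a CRMP, had a mean change of 0.74, was not tested and lay under the limit throughout.

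Among 20 measured co-receptors and partner receptors the median change was 0.12. In both lines 10 were higher and 4 lower, against 5779 and 5072 of all 17687 named genes. The integrin alpha chain ITGAV stood at 12.46 and 13.94 in Li-7, against 11.43 and 13.27 in HEP-G2, and its mean change of 1.66 was the largest of this list (adjusted p = 0.0589 by limma). ITGA6, an alpha chain that pairs with beta-1, was at 1.26 (adjusted p = 0.108 by limma) and MET, the partner of B-type plexins, at 0.93 (adjusted p = 0.127), both above the limit on all arrays. CD72, a receptor of SEMA4D in B cells, was at 0.97 (adjusted p = 0.123) and under the limit throughout.

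Other ligands of neuropilins split by direction. Of 10 measured, 4 were higher and 4 lower in both lines, against 5779 and 5072 of all 17687 named genes. Their median was 0.02. The 3 that passed the limit on no array were not tested, and all 3 were among the 4 lower. LGALS1, galectin-1, was at 1.30 with 0.73 in Li-7 and 1.88 in the other line (adjusted p = 0.119 by limma) and TGFB1 at 0.97 (adjusted p = 0.150). VEGFA, the main ligand of NRP1 besides SEMA3A, stood at 11.93 and 11.12 in Li-7, against 12.17 and 12.24 in HEP-G2, with a mean change of -0.37 (adjusted p = 0.538 by limma). HGF, whose values are given above, was at -0.73 and not tested. FGF2 and PGF were at 0.65 each, FGF2 under the limit in HEP-G2 (4.41 and 4.99) and above it in Li-7 (11.19 and 11.90).

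Of 7 measured proteases that cleave semaphorins, 6 were higher in both lines and 0 lower in both, against 5779 and 5072 of all 17687 named genes. Their median was 0.42. FURIN, the convertase that cuts class 3 semaphorins, stood at 6.98 and 7.54 in Li-7, against 9.27 and 10.16 in HEP-G2, a mean change of 0.72 (adjusted p = 0.196 by limma). ADAM17, a sheddase of membrane proteins, was at 0.70 (adjusted p = 0.194), PCSK5, another convertase, at 0.55 (adjusted p = 0.277) and MMP14, a membrane protease, at 0.42 (adjusted p = 0.464).

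Beside these, the other guidance families had medians of 0.00 for 21 ephrins and Eph receptors, 0.23 for 7 slits and robos and 0.02 for 14 genes of the netrin and RGM system, against 0.24 for the 30 genes described here. In these 3 families 0 genes passed the limma test of the mimic response, with 1 of 12, 0 of 3 and 1 of 8 tested genes at an unadjusted p under 0.05, and no test between the families was made. Of the 3, 7 of 21, 3 of 7 and 6 of 14 genes were higher in both lines, against 32.7% of all named genes. Above the limit on no array were 16 of the 21, 6 of the 7 and 12 of the 14, against 16 of the 30. The medians of these 3 families, and that of the 30 genes described here, thus rest mostly on genes under the limit on every array.

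**Figure D4:**
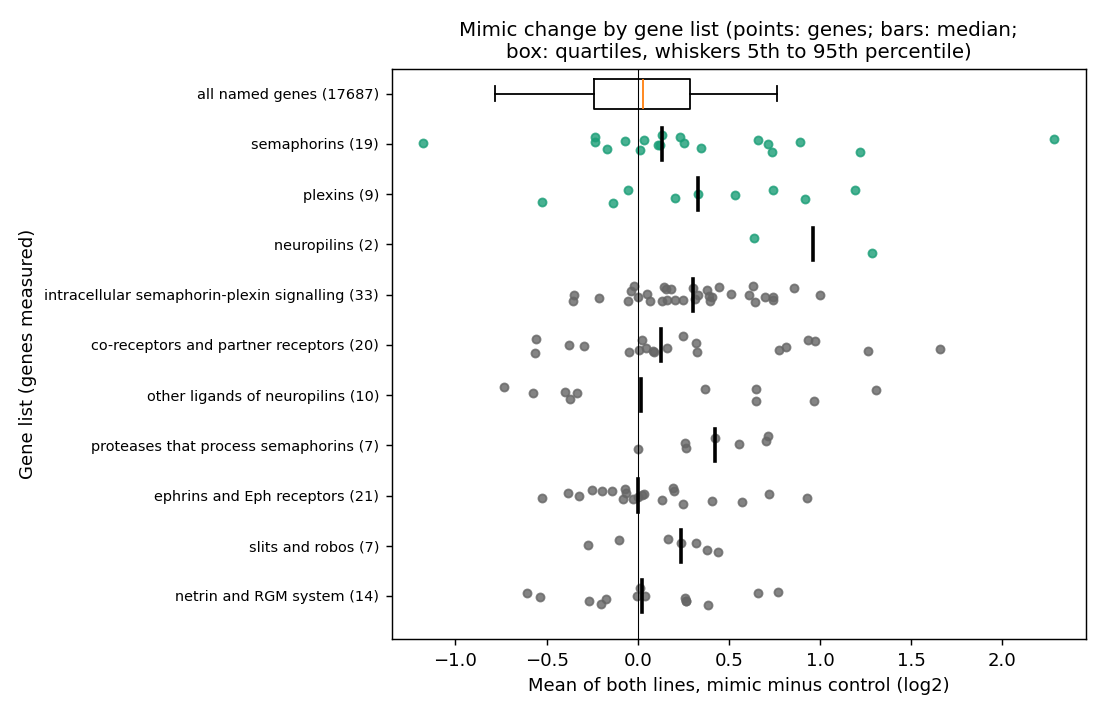
Mean mimic change over both lines (x axis, log2) by gene list (y axis, number of genes measured in brackets). Each point is a gene, black bars are medians, and the box shows the quartiles of all named genes with whiskers from the 5th to the 95th percentile; SEMA7A at 2.28 is the rightmost point and SEMA6B at -1.18 the leftmost.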

How the data were processed

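Biotinylated cRNA from total RNA of each culture was put on 1 Affymetrix array, per the labels' protocols. The authors deposited summarised probe-set values, read here as log2 from their range of 1.48 to 18.3. Affymetrix Expression Console and Transcriptome Analysis Console were used, per the submitters' processing notes. How background, normalization and log base were handled, and the genome build, is not given in the sources read here. Of 24351 probe sets, 17709 carried 1 gene name and 0 several in the platform annotation. All 17709 Entrez identifiers matched RefSeq (GRCh38.p14), whose symbols were used. The brightest probe set by mean stood for each of the 20 genes with more than 1, of 17687 in all and none a member.

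Values were analysed as deposited in R 4.3.3 with limma 3.58.1. One model with cell line and treatment (lmFit, eBayes) was fitted to 12381 genes, those whose mean reached the 30th percentile of named genes (4.90). Benjamini-Hochberg adjustment ran over all of them, and adjusted p under 0.05 counted as passed. Each gene has 1 residual degree of freedom beside 5.85 prior ones. No replicate cultures exist, so the error is the disagreement between lines or treatments, pulled by eBayes towards a value shared over all genes. Members and lists were chosen with earlier results of these data known. Values on every array are given for members that passed a test or moved at least 2-fold in a line, and for PLXNC1 and the neuropilins. Other members are given by range or selected values, and up to 4 genes are named per list, by largest mean change. Genes named outside this rule, chosen after their values were seen, are ITGB1, VEGFA, FGF2, CACNA2D1, PCLO, PLXNA1 and the marker genes. The number of arrays limits the precision.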

Additional observations from a re-analysis of the deposited data

Results flagged for a closer look

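In 9 genes the single mimic-control difference had opposite signs in the lines, and this contrast was not tested with 1 array per line and treatment. The widest was SEMA3C, whose HEP-G2 change minus its Li-7 change was -1.63. It was 1.55 in Li-7, on values above the background limit, and -0.08 in HEP-G2, on values under it, a sign that turned after cyclic loess (0.04). The same quantity was 0.89 for SEMA5A, -0.82 for SEMA4C, 0.70 for PLXNB3, -0.68 for SEMA6C and 0.61 for SEMA6D, and all of these lay under the background limit on every array. It was 0.26 for SEMA4A and -0.16 for SEMA3F, also under the limit throughout, and -0.15 for PLXNA1, which lay above it throughout. Among all named genes 6834 of 17687 had opposite signs.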

How the results depend on the processing

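No paired analysis by replicate number was possible because each group has 1 array and the labels give no replicate numbers. For the same reason no replicate could be left out. The SEMA7A change was 2.31 after quantile normalization, 2.29 after median centring and 2.34 after cyclic loess. Every other setting left its values as deposited and so could not move it from 2.28. Its call was lost with the ordinary t statistic (adjusted p = 0.635) and without cell line in the model (adjusted p = 1). The number of members called for the mimic response was 1 as fitted, 3 after quantile normalization, 3 with the filter at the median gene, 3 with the filter on the background limit, 2 with an intensity trend, and 0 with the ordinary t statistic or without cell line. Over all genes these counts were 52 as fitted (10 higher), 465 (192 higher), 366 (127 higher), 427 (161 higher), 411 (158 higher), 1 and 0, and 23 (4 higher) after cyclic loess. Members called for the line difference numbered 16, and 10 and 9 under the stricter filters, which tested 12 and 11 members. Over all genes the calls were 5563 of 12381, then 4524 of 8844 and 4226 of 7698. Without treatment in the model 12 members were called, against 3791 of all 12381 genes. The calls of SEMA7A, SEMA6B, SEMA4C and SEMA4D were then lost. With the ordinary t statistic, which passed 1 gene of all, 0 members were called. After quantile normalization or median centring 5 members were at least 2-fold higher in HEP-G2, against 3. At a 1.5-fold limit 9 were higher and 2 lower in Li-7, and 10 higher in HEP-G2. Members above the background limit numbered 13 on each HEP-G2 array at the 90th percentile of the negative controls. At the 99th they numbered 4 (control) and 5 (mimic) in Li-7 and 1 and 2 in HEP-G2. For the 1.5-fold limit, the rescaled 2-fold counts and these percentiles, the share of all named genes was not counted. Median centring moved the median line difference of all genes from 0.05 to 0.17. Under another scaling the mean mimic change turned its sign for SEMA4A, PLXNA1 and SEMA3F, and the line difference for PLXNA4 and SEMA5A, all of 0.10 or less in size. Apart from these, the causes of such differences between settings were not tested. Signal under the background limit restricts the 16 members that passed it on no array, with values from 3.09 to 7.47.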
